A study of Mus musculus with 79 samples.

Results

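The 9 genes Lect1, Matn1, Matn3, Acan, Col2a1, Col9a1, Col11a2, Comp and Sox9 build, bind or switch on the extracellular matrix of cartilage, and they were followed here among 25965 genes in the hypothalamus of mice with altered DNMT3A. They were picked by name from a list of cartilage genes after the expression contrast between the genotypes had been seen, in which Lect1 and Matn1 stood out. Their expression differences between genotypes are therefore given as a description without a test, whereas their histone marks were measured in other libraries and were tested.

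Adult hypothalamus was taken at about 14 weeks from wild-type mice (+/+) and from Δ/D329A mice. The Δ/D329A mice carry 2 altered copies of Dnmt3a, the gene of a de novo DNA methyltransferase: Δ is a maternal copy that lost an exon through Cre driven by the oocyte promoter Zp3, and D329A is a paternal copy with a point mutation in the PWWP domain, which binds methylated lysine 36 of histone H3. RNA-seq covered 5 +/+ and 4 Δ/D329A libraries, and native ChIP-seq covered H3K4me3, H3K27me3, H3K36me3 and input in 3 libraries of each genotype. The Δ and D329A copies are present in every cell, so the 2 alleles and any change in the rest of the body cannot be told apart in these animals.

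In cartilage, fibrils of type II collagen (Col2a1) with type XI collagen (Col11a2) carry type IX collagen (Col9a1) on their surface, the proteoglycan aggrecan (Acan) holds water between them, and matrilins (Matn1, Matn3) and COMP (Comp) bridge the fibrils to other matrix proteins. SOX9 (Sox9) is the transcription factor that drives this programme in chondrocytes, and chondromodulin (Lect1, also named Cnmd) is a membrane glycoprotein that keeps cartilage free of vessels. Outside cartilage, aggrecan is also a component of the perineuronal nets around neurons, and Sox9 is expressed in astrocytes.

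The promoters of Lect1 and Matn1, whose RNA differed most between genotypes, are shown beside those of Acan and Col11a2, which carried more H3K4me3. Each stretch runs 5′ to 3′ along the strand of the gene, from 250 bases before to 50 bases after the RefSeq start on GRCm38.p6, and capitals mark CG dinucleotides, the sites of DNA methylation.
Lect1 (chr14:79662134-79662433, minus strand): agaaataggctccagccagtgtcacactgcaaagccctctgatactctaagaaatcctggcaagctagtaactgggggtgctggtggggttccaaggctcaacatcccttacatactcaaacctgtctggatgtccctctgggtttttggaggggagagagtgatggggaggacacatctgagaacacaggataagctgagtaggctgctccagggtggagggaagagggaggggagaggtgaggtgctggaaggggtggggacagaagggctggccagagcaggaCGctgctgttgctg
Matn1 (chr4:130944135-130944434, plus strand): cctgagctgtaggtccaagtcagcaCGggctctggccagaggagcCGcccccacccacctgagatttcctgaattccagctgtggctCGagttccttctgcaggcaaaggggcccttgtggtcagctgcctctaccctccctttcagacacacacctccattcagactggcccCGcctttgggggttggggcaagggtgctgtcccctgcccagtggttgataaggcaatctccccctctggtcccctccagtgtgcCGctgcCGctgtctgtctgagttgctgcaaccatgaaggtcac
Acan (chr7:79052976-79053275, plus strand): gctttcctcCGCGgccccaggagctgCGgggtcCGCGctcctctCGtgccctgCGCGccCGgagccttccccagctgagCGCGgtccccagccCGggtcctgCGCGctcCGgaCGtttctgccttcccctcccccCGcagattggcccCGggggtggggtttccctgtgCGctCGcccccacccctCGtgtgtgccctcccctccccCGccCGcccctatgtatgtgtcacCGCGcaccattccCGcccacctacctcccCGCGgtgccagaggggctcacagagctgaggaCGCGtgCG
Col11a2 (chr17:34038888-34039187, plus strand): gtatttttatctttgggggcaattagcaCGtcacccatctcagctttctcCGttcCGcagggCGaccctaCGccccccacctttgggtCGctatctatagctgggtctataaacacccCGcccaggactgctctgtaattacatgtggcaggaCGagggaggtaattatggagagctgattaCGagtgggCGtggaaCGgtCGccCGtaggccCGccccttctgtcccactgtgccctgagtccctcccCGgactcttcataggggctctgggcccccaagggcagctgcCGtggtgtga

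The promoter of Lect1 held 1 CG and that of Matn1 held 6, against 31 for Acan and 16 for Col11a2, and the median over 32851 RefSeq promoters of 300 bases was 7. Matn3 had 15 CG dinucleotides, while the 2 listed starts of Col9a1 had 0 and 1. The 7 promoters cover 6 of the 9 members. Col2a1, Comp and Sox9 were not among the entries used. The TATA motif TATAAA was found on either strand only at Col11a2, at −143 from the start, and occurs in 13.6% of all promoters. The SOX motif ACAATGG was found in none of the 7, and 3.66% of all promoters hold it. The GC box GGGCGG, which overlaps a CG, was present once at Matn1, 3 times each at Matn3 and Acan, 2 times at Col11a2 and not at Lect1 or Col9a1, against a share of 35.7% of all promoters with at least 1. These are matches of letters and not measured sites.

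The tissue and the libraries were examined first. The 11 hypothalamic markers, among them Oxt, Avp, Hcrt and Pmch, summed to between 369 and 766 RPKM in +/+ and between 433 and 640 RPKM in Δ/D329A. None of the 11 was called by limma, and Sim1, a hypothalamic transcription factor, was lower in Δ/D329A without overlap (log2 difference −0.82, limma adjusted p = 0.155, edgeR 0.00859, DESeq2 1.03e-04), while Pomc differed by −1.06 (limma adjusted p = 0.355). Dnmt3a itself ranged from 3.28 to 4.31 RPKM in +/+ and from 2.84 to 3.30 RPKM in Δ/D329A, and whole-gene values cannot check either allele. The RNA-seq libraries held between 3874084 and 9976687 reads on genes, and the ChIP libraries of the marks between 12676361 and 26178088 mapped reads, so that 1 read was worth 0.0382 to 0.0789 RPM (reads scaled to the mapped reads of the library). Among the H3K4me3 libraries, replicate 1 of Δ/D329A stood apart in its background, with a median of 0.314 RPM per tile against 0.0789 to 0.200 RPM in the other 5. Replicates were individual animals, and in bulk tissue a change in the number of cells that express a gene and a change in RNA per cell cannot be told apart.

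Lect1 and Matn1 were the members with higher RNA in Δ/D329A hypothalamus. Lect1 stood at 0.531, 0.798, 0.446, 0.455 and 0.258 RPKM (reads scaled to transcript length and library size) in +/+ replicates 1 to 5. In Δ/D329A replicates 1 to 4 it stood at 4.23, 3.87, 3.96 and 5.61 RPKM. All 4 Δ/D329A libraries were above all 5 +/+ libraries, and the lowest of them was several times the highest +/+ library. The mean log2 RPKM of Lect1 was −1.10 ± 0.59 in the 5 +/+ animals and 2.13 ± 0.25 in the 4 Δ/D329A animals (SD), which gives a difference of 3.23 with a standard error of 0.29. These values rested on 8 to 23 reads in each +/+ library and on 75 to 115 in each library of Δ/D329A.

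Matn1, which encodes the matrilin most restricted to cartilage, was close to absent in +/+ hypothalamus. It received 5, 3, 1, 0 and 1 reads in +/+ replicates 1 to 5, and 31, 30, 35 and 21 reads in Δ/D329A replicates 1 to 4. Every Δ/D329A library held several times the reads of the highest +/+ library, and the groups did not overlap. With a gene of 0 reads taken as 0, the mean of Matn1 was 0.0598 ± 0.0550 RPKM in the 5 +/+ animals and 1.19 ± 0.223 RPKM in the 4 Δ/D329A animals (SD). The log2 difference was 4.46 with a standard error of 0.46 on the deposited scale, where 0 reads are entered as 0.9 read, and it was 2.99 on the scale of log2(RPKM + 0.1), which compresses low genes.

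The other structural collagens and aggrecan showed no such separation. Col11a2 came next to Lect1 and Matn1 in the size of its difference among the 7 tested members. It stood at 2.43, 1.39, 1.38, 0.963 and 1.41 RPKM in +/+ and at 1.86, 2.23, 2.19 and 2.37 RPKM in Δ/D329A, so that all Δ/D329A libraries were above 4 of the 5 +/+ libraries and below +/+ replicate 1. The log2 difference was 0.58 with a standard error of 0.24, and 0.76 without +/+ replicate 1. Col2a1, the main cartilage collagen, stood at 0.879, 0.224, 0.349, 0.344 and 0.554 RPKM in +/+ and at 0.307, 0.475, 0.389 and 0.374 RPKM in Δ/D329A, within the range of +/+. Its log2 difference was −0.14 with a standard error of 0.36, and 0.13 without +/+ replicate 1.

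Acan ranged from 0.194 to 0.577 RPKM in +/+ and from 0.207 to 0.552 RPKM in Δ/D329A, with a log2 difference of 0.09 and a standard error of 0.35. Col9a1 ranged from 0.0883 to 0.161 RPKM in +/+ and from 0.0445 to 0.229 RPKM in Δ/D329A. Its log2 difference of −0.02 had a standard error of 0.40 on 3 to 17 reads per library. Both genes had their highest +/+ value in replicate 1, as did Col2a1, Col11a2 and Matn1, while Sox9 had its lowest +/+ value there.

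Sox9, the regulator, was the best expressed member in +/+. It stood at 1.58, 2.55, 2.95, 2.68 and 3.62 RPKM in +/+ and at 1.55, 2.18, 3.60 and 3.06 RPKM in Δ/D329A. The groups covered almost the same range, with a log2 difference of −0.06 and a standard error of 0.29. The bridging proteins Comp and Matn3 were at the detection limit. Comp received 1 to 3 reads in each +/+ library and 0 to 5 in each library of Δ/D329A, and Matn3 received 2 reads in +/+ replicate 4 and 0 in each of the other 8 libraries. Neither reached 0.1 RPKM in 4 libraries, so neither entered the fit over all genes. The mean log2 RPKM of Comp was higher in Δ/D329A by 1.14, on 8 reads in +/+ and 11 in Δ/D329A in total.

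**Figure D1:**
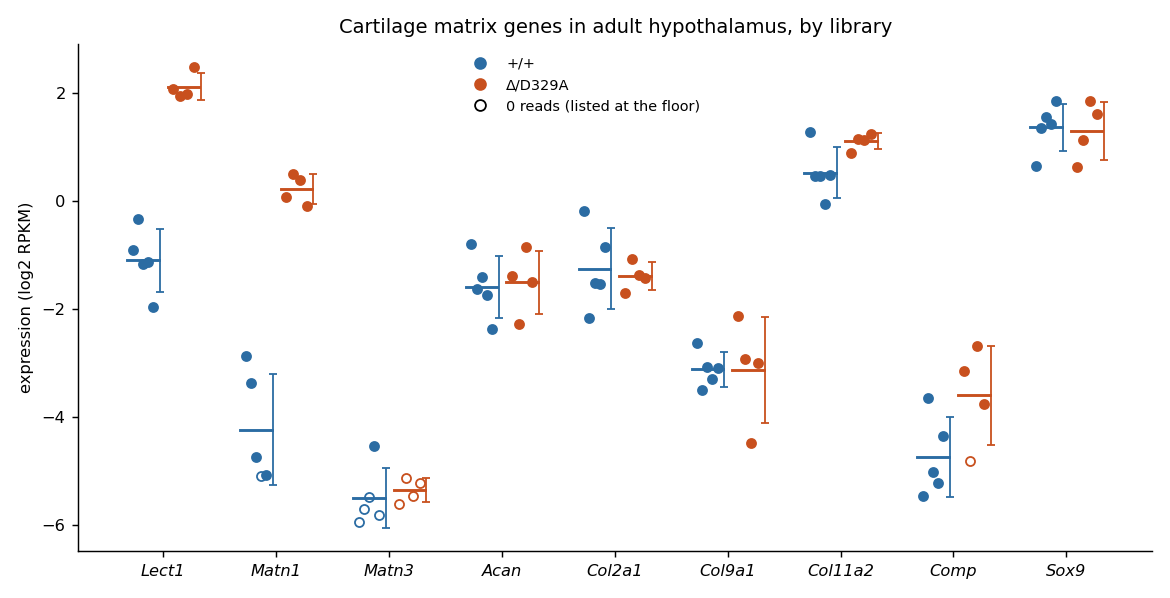
Expression of the 9 cartilage matrix genes in each RNA-seq library (log2 RPKM), with the mean of each genotype as a horizontal line and 1 SD as a bar (5 +/+ and 4 Δ/D329A libraries). Open points mark libraries with 0 reads. Lect1 and Matn1 are the genes whose 4 Δ/D329A points all lie above the 5 +/+ points, and the other 7 genes overlap between genotypes.

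Of the 7 members tested, Lect1 and Matn1 passed an adjusted p of 0.01 (limma, Benjamini-Hochberg over 17839 genes), both higher in Δ/D329A. Over all genes 0.107% passed, 0.0841% in that direction alone, and 1.78% had groups that did not overlap in that direction. Nothing is read from this count, because the same contrast chose the members. The members inside the threshold were Lect1 and Matn1 with log2 differences of 3.23 and 4.46, and the nearest outside was Col11a2 with 0.58. Matn1 entered the fit through Δ/D329A, since only 1 +/+ library reached 0.1 RPKM.

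The order of the genes differed between genotypes. In +/+, the mean log2 RPKM fell from Sox9 (1.37) and Col11a2 (0.53) to Lect1 (−1.10), Col2a1 (−1.25), Acan (−1.59), Col9a1 (−3.12), Matn1 (−4.24), Comp (−4.75) and Matn3 (−5.50). Sox9 overlapped Col11a2 in range, as did Lect1, Col2a1 and Acan among neighbours in this order, whereas Col11a2 lay above Lect1 and Acan above Col9a1 without overlap. From Col9a1 down to Matn3 each gene overlapped the next. In Δ/D329A, Lect1 led with 2.13, above every library of the next gene Sox9 (1.31), and Matn1 (0.23) took the place after Col11a2 (1.11), separate from both Col11a2 and Col2a1 (−1.39). Among all genes, Lect1 moved from the percentile 49.99 of mean log2 RPKM in +/+ to 77.7 in Δ/D329A, and Matn1 from 19.0 to 57.6.

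The genes whose profiles over the 9 libraries were most like that of Lect1, by the root mean square difference of centred log2 RPKM, were Hoxa6 (0.53), Gabrr2 (0.54) and Trim40 (0.62), beside a range of 4.44 for Lect1 itself. For Matn1 they were Tal1 (0.78), Lect1 (0.85) and 2310006M14Rik (0.86), beside a range of 5.62 for Matn1. Gabrr2, a GABA receptor subunit, rested on 24 reads in +/+ and 99 reads in Δ/D329A in total, while Hoxa6 had 0 and 17 reads and Trim40 had 1 and 19 reads. Tal1, a haematopoietic and neuronal transcription factor, rested on 69 and 324 reads and 2310006M14Rik on 11 and 86. These profiles are dominated by the step between genotypes that also chose the members.

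A wider list of 50 other genes of cartilage was then examined for the same contrast, and none of its 39 tested genes was called by limma at an adjusted p of 0.01. Without adjustment 10 of them had p under 0.05, 6 higher and 4 lower in Δ/D329A, where 7.62% of all genes did. On the recovered reads, edgeR called 1 of 34 (0.554% of all genes) and DESeq2 4 of 39 (1.56% of all genes). The median log2 difference of the list was 0.11, against 0.06 over all 17839 genes, and 21 of 39 differences were positive against 59.6% of all genes. The 4 cartilage collagens tested had a median of 0.11 and the 14 other matrix genes a median of 0.39. On the deposited scale a gene with 0 reads in all libraries, such as Bglap, already differs by 0.37, and on recovered reads the median of the matrix genes was 0.22 (DESeq2, 13 genes) and that of the whole list −0.03 (38 genes), beside 0.00182 over all genes. The 9 chondrogenic regulators had a median of −0.12 and the 12 genes of sulfation, processing and receptors a median of −0.04.

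Of the 5 best expressed genes of the list, 4 differed by at most 0.24 on the log2 scale, and Scrg1 by more. Fgfr3, a growth factor receptor of growth plate and glia, averaged 3.38 log2 RPKM in +/+ and 3.18 in Δ/D329A (difference −0.20, limma adjusted p = 0.842). The prolyl hydroxylase P4ha1 differed by −0.03, the chondroitin sulfotransferase Chst11 by 0.24 and the regulator Trps1 by −0.12. Scrg1, a gene raised in prion-infected brain and in chondrogenesis, had a mean log2 RPKM of 1.90 ± 0.45 in the 5 +/+ animals and 2.87 ± 0.32 in the 4 Δ/D329A animals (SD). Its groups did not overlap, and its difference of 0.97 had an adjusted p of 0.252 by limma, 0.00856 by edgeR and 7.50e-04 by DESeq2.

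Wnt9a, a joint-forming signal, and Prg4, the joint lubricant lubricin, had the largest differences among the tested genes of the list. Wnt9a averaged −2.01 in +/+ and −0.72 in Δ/D329A (difference 1.29, SE 0.31, limma adjusted p = 0.234, edgeR 0.0289, DESeq2 0.0164). Prg4 ranged from −6.30 to −0.12 log2 RPKM in +/+ and from −3.25 to −0.45 in Δ/D329A, so that its difference of 1.22 lay well within the spread of +/+. The other genes called by DESeq2 were Prelp (DESeq2 log2 difference 0.67), Col27a1 (0.82) and the aggrecan-cleaving protease Adamts4 (−0.66), named here after their values were seen.

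**Figure D2:**
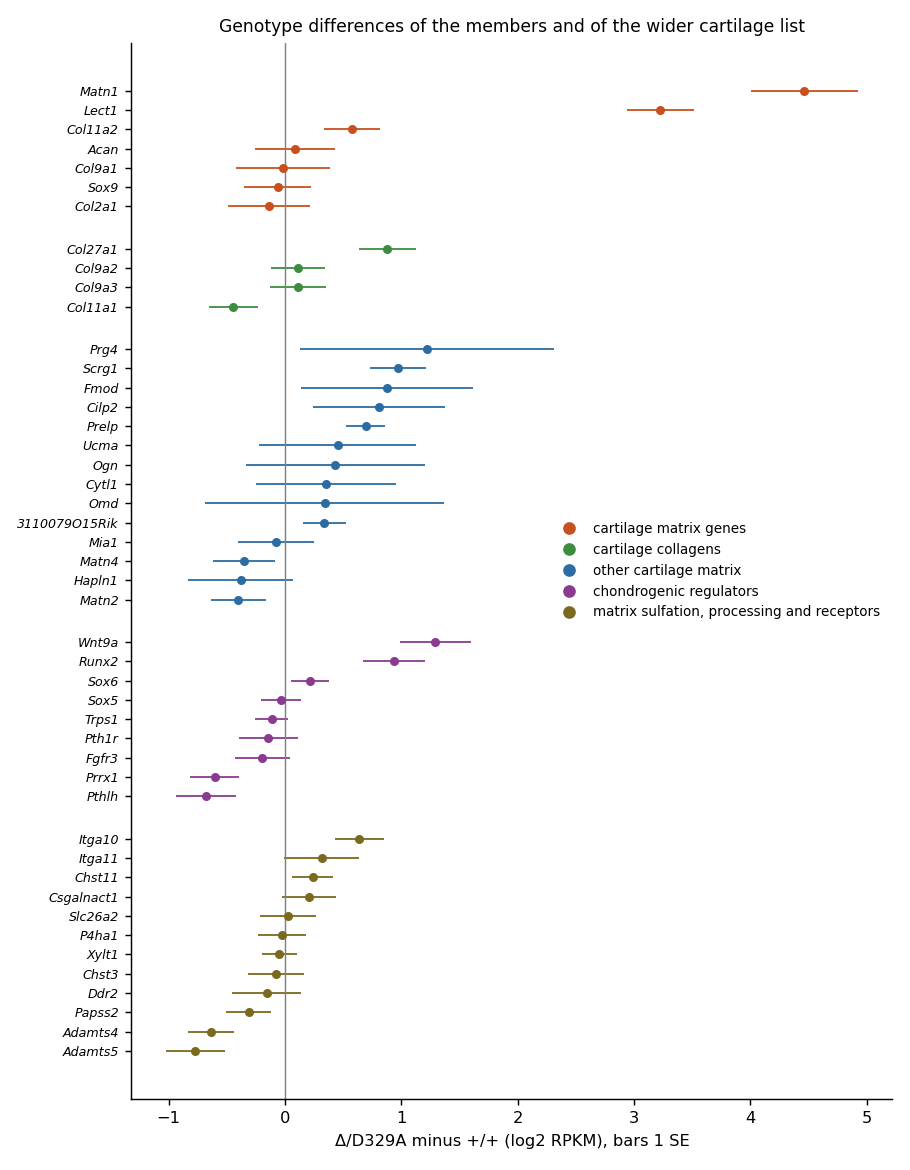
Difference of Δ/D329A minus +/+ in log2 RPKM for the 7 tested members and the 39 tested genes of the wider cartilage list, each with 1 SE from the limma fit. Matn1 (4.46) and Lect1 (3.23) stand to the right of the list, whose differences run from −0.77 (Adamts5) to 1.29 (Wnt9a).

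Of the defining genes of bone and of cartilage hypertrophy, some were at or near 0 and others were not. Bglap and Bglap2 had 0 reads in all 9 libraries, Ibsp had 0 and 2 reads in the groups, and Col10a1, the collagen of hypertrophic cartilage, had 0 reads in +/+ and 2 reads in Δ/D329A. Sp7 had 40 and 31 reads and Phex 45 and 29, while Alpl was expressed in both genotypes, with 348 and 286 reads. Dmp1, a matrix protein of bone cells, had 34 and 62 reads without overlap in RPKM (log2 difference 1.52, limma adjusted p = 0.117, edgeR 0.0219, DESeq2 0.0284). The 7 osteoblast markers summed to 1.09 to 1.95 RPKM in +/+ and to 1.87 to 2.43 RPKM in Δ/D329A. The sum of 11 meningeal and perivascular fibroblast markers ranged from 10.3 to 33.7 RPKM in +/+ and from 14.2 to 35.3 RPKM in Δ/D329A. The 10 genes of the perineuronal net, in which aggrecan takes part, summed to 67.6 to 135 RPKM and 69.2 to 82.6 RPKM. Among them Ncan, the proteoglycan neurocan, was lower in Δ/D329A without overlap (log2 difference −0.80, limma adjusted p = 0.315, edgeR 0.00169, DESeq2 2.81e-09). Of 12 marker lists, the summed level of 11 overlapped between genotypes, and that of the 6 melanocyte markers did not, with 0.805 to 1.12 RPKM in +/+ and 2.36 to 4.03 RPKM in Δ/D329A. One of them, Dct, was called by limma (log2 difference 4.97, adjusted p = 2.03e-04, 12 and 227 reads in the groups), while Mlana had 0 reads in every library, Tyr had 1 and 0 reads in the groups, Tyrp1 had 12 and 6, Pmel had 24 and 7 and Mitf had 163 and 137. Single markers also differed within lists whose sums overlapped, although limma called none of them. Without overlap, Ttr of choroid plexus differed by 1.82 (limma adjusted p = 0.187, DESeq2 0.0014) and Rora of thalamus by 0.75 (limma adjusted p = 0.268, DESeq2 0.00453). Other choroid plexus markers went the other way. Kl differed by −0.43 without overlap (limma adjusted p = 0.355), and Clic6 by −0.35 and Otx2 by −0.31 with overlap. Folr1 differed by 0.08, and Aqp1 was not tested. With overlap, Gbx2 of thalamus differed by 1.79 (limma adjusted p = 0.255, DESeq2 1.31e-04), Crym of tanycytes by −1.51 (0.355, DESeq2 0.00177) and Pdgfra of oligodendrocyte precursors by −0.55 (0.355, DESeq2 6.31e-06). These single markers were chosen after their values were seen, and the part of other cells or of the dissection in the values of Lect1 and Matn1 was not tested.

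The genes next to the members were compared to see whether the differences at Lect1 and Matn1 reached beyond them. Lect1 lies at chr14:79637690-79662170 on the minus strand, 7935 bases from Sugt1 and 104602 bases from Pcdh8. Sugt1 averaged 3.73 and 3.61 log2 RPKM (difference −0.12, SE 0.18) and Pcdh8 averaged 2.22 and 2.34 (difference 0.12, SE 0.20). Matn1 lies at chr4:130944385-130955475 on the plus strand, 8244 bases from Laptm5 and 19315 bases from Gm12973. Laptm5 differed by 0.03 (SE 0.30), and Gm12973 received 1 read in +/+ and 0 in Δ/D329A. The 3 neighbours with reads in every library thus differed by far less than Lect1 and Matn1 themselves.

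Of the 18 neighbours of the 9 members, 17 were tested and limma called none (0.107% of all genes). At an unadjusted p under 0.05 there was 1 (7.62% of all genes). That gene was Col19a1, a collagen beside Col9a1, at −0.16 log2 RPKM in +/+ and −1.20 in Δ/D329A. Its difference of −1.04 had an adjusted p of 0.144 by limma, 0.00717 by edgeR and 1.42e-04 by DESeq2. No other neighbour was called by edgeR (12 tested, 0.554% of all genes called) or by DESeq2 (16 tested, 1.56% of all genes called).

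Histone marks were read in tiles of 2000 bases, spaced 1000 bases apart, in RPM. H3K4me3 marks the starts of active or poised genes, H3K27me3 is the mark of Polycomb repression, and H3K36me3 covers the bodies of transcribed genes. A promoter ran from 1500 bases before to 500 bases after the gene start and the gene body from there to the gene end, and the mean over tiles was taken.

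In +/+ hypothalamus the members fell into separate chromatin states. On the RPM scale, H3K4me3 was above input at 6 of 9 promoters, all but Matn1, Col9a1 and Comp (limma, adjusted p under 0.05, with 57.5% of all promoters above input and 33.4% below), and below it at Matn1 and Col9a1. H3K27me3 was above input at 5 of 9 promoters, namely Matn3, Acan, Col2a1, Comp and Sox9, and below it at none (20.2% and 42.6% of all promoters). H3K36me3 was below input at 8 promoters and above it at none (76.9% and 3.7% of all promoters). The 50 other cartilage genes had 31 promoters above input for H3K4me3 and 23 for H3K27me3. These directions depend on the scaling, and the mark and input libraries differ in background. The median tile in +/+ held 0.131 to 0.200 RPM for H3K4me3, 0.540 to 0.566 RPM for H3K27me3 and 0.522 to 0.525 RPM for H3K36me3. For input it held 0.816 to 0.837 RPM. Below input thus means fewer RPM than input and not fewer than the background of the mark. The median promoter lay 2.72 above input for H3K4me3, −0.35 for H3K27me3 and −1.23 for H3K36me3 (log2). Centring each library on its own median over promoters removes the gap between the median of the mark and that of input. For H3K27me3 these medians were 0.483 and 0.790 RPM. The gap need not equal the median ratio just given. On that scale 2 members were above for H3K4me3 (Col11a2 and Sox9), 8 for H3K27me3 (all but Col11a2) and 1 for H3K36me3 (Col11a2). Lect1, Matn3 and Col2a1 then had negative values for H3K4me3, at −1.70, −0.71 and −1.83.

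On the RPM scale Sox9, Acan, Matn3 and Col2a1 were above input for both marks at the promoter. With median centring only Sox9 was above for both. H3K4me3 at Sox9 stood at 14.2, 11.1 and 11.3 RPM in the 3 +/+ libraries, at Acan at 7.43, 8.58 and 8.34 RPM and at Matn3 at 3.07, 4.29 and 4.27 RPM. The median of all promoters was 5.64 RPM. H3K27me3 averaged 3.96 ± 0.61 RPM (SD, n = 3) at Sox9, 4.09 ± 0.72 RPM at Acan and 2.96 ± 0.25 RPM at Matn3, several times the median of all promoters, 0.483 RPM. Comp had the most H3K27me3 of the members, at 4.66, 4.47 and 4.34 RPM, with H3K4me3 that was not called above input (1.05 ± 0.22 RPM against an input of 0.877 RPM). Col2a1 combined 4.03 ± 0.12 RPM of H3K27me3 with 1.72 ± 0.39 RPM of H3K4me3.

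Col11a2 had H3K4me3 without H3K27me3 at its promoter. H3K4me3 averaged 8.91 ± 0.89 RPM and H3K27me3 0.693 ± 0.218 RPM, the latter not called against input. A taller H3K4me3 summit of 38.4 RPM lay at −7436 bases from the Col11a2 start, close to the start of Rxrb, which runs on the same strand and ends 1044 bases before that start. The promoter window of Col11a2 overlaps the end of Rxrb, and its H3K36me3 was the highest among the members (0.807 ± 0.212 RPM).

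Lect1 and Matn1 had less H3K4me3 at the promoter than the median of all promoters in +/+. Neither was called there for H3K27me3 against input on the RPM scale. Their H3K27me3 stood at the percentiles 63.4 (Lect1) and 67.0 (Matn1) of all promoters, and both were above with median centring. Lect1 held 1.58, 1.496 and 1.38 RPM of H3K4me3, 0.99 above input on the log2 scale (SE 0.17, limma adjusted p = 0.00145), and 0.881, 0.841 and 0.744 RPM of H3K27me3, which was not called (adjusted p = 0.288). Its H3K4me3 was highest 1169 bases inside the gene, at 3.14 ± 0.21 RPM (SD, n = 3). Matn1 held 0.474, 0.632 and 0.591 RPM of H3K4me3, below an input of 0.942 RPM (log2 difference −0.65, SE 0.21, adjusted p = 0.0246, and 0.0741 with the animal as a block), and 0.975, 0.781 and 0.992 RPM of H3K27me3, which was not called at the promoter (adjusted p = 0.847). Over the body of Matn1, H3K27me3 was above input by 0.62 on the log2 scale (SE 0.09, adjusted p = 7.64e-04).

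Col9a1 had the least H3K4me3 of the members, with 0.158, 0.133 and 0.263 RPM at the start used in the table. At its second RefSeq start, 17593 bases downstream, H3K4me3 averaged 0.349 ± 0.088 RPM and H3K27me3 1.52 ± 0.38 RPM (SD, n = 3).

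**Figure D3:**
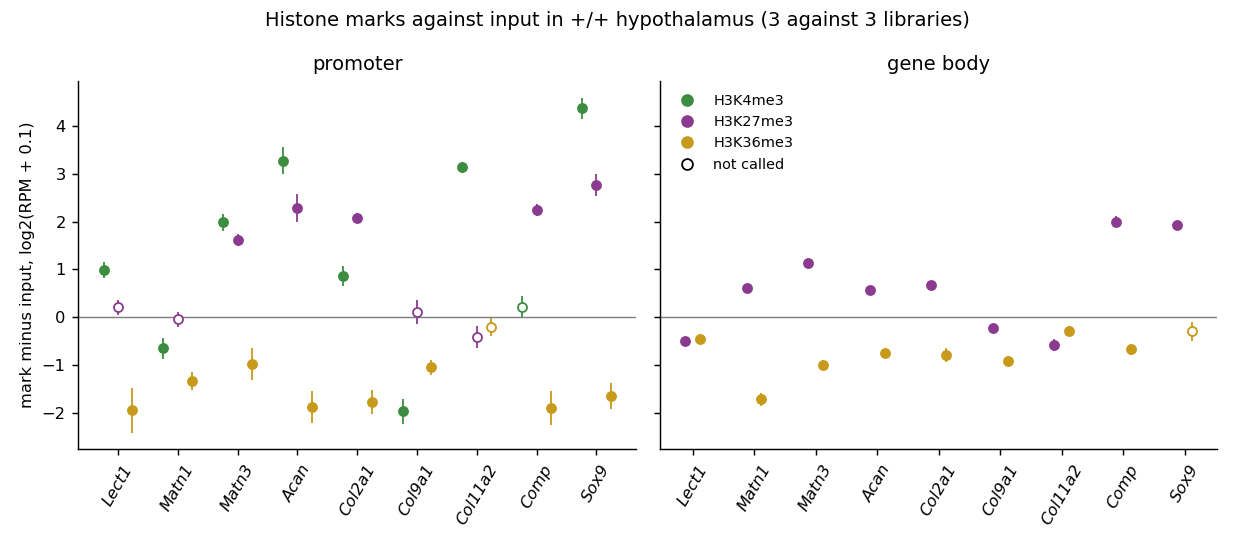
Mark minus input in log2(RPM + 0.1) at the promoters (left) and over the gene bodies (right) of the 9 members in +/+ hypothalamus, 3 against 3 libraries, with 1 SE from the limma fit. Filled points were called at an adjusted p of 0.05. On this RPM scale H3K4me3 is above input at 6 promoters, H3K27me3 at 5, and H3K36me3 at no promoter or body. With each library centred on its own median over promoters, the promoter counts are 2, 8 and 1.

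Over the gene bodies, H3K27me3 was above input on the RPM scale at 6 of 9 members (21.1% of all bodies, with 54.5% below), all but Lect1, Col9a1 and Col11a2, which were below it. With each library centred on its own median over bodies, 8 were above, all but Col11a2, so that the direction at Lect1 and Col9a1 turned. Without centring, Lect1 stood at −0.50 (SE 0.09), close to the median log2 difference from input over all bodies, −0.53. With the animal as a block, Col9a1 was no longer called (adjusted p = 0.0834). H3K36me3 was above input over none of the 9 bodies and below input over 8, against 40.6% of all bodies above and 40.7% below. Sox9 was the member not called for H3K36me3 (log2 difference −0.29, SE 0.20), and with the animal as a block Col11a2 was not called either (adjusted p = 0.0950). The lowest was Matn1, at 0.127, 0.177 and 0.205 RPM, the percentile 5.50 of all bodies, and Lect1 stood at 0.616, 0.595 and 0.674 RPM, the percentile 40.4.

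The marks were then compared between genotypes, and no member was called for any mark at its promoter or over its body (limma, adjusted p under 0.05, 3 against 3 libraries). At promoters, limma called 0% of all genes for H3K4me3 and H3K27me3 and 0.0231% for H3K36me3, and over bodies 0%, 0.00845% and 0%. At an unadjusted p under 0.05 there was 1 member for H3K4me3 (Col11a2), 2 for H3K27me3 (Matn1 and Col11a2) and 0 for H3K36me3, against 3.47%, 8.9% and 6.58% of all promoters. Over gene bodies there were 0, 2 (Col11a2 and Comp) and 0, against 3.53%, 13% and 16.1%. By edgeR on the recovered reads no member was called either, with 7, 9 and 2 promoters and 9, 9 and 9 bodies of members tested. It called 0.331%, 2.03% and 0.0159% of all promoters and 0%, 0.166% and 0.805% of all bodies for the marks in that order. The standard errors of the members ran from 0.10 to 0.45 at promoters and from 0.09 to 0.38 over bodies on the log2 scale. A member that was not called is not thereby shown to be equal between genotypes.

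For Lect1, H3K4me3 at the promoter stood at 1.58, 1.496 and 1.38 RPM in +/+ and at 1.72, 1.54 and 3.55 RPM in Δ/D329A. Δ/D329A replicate 3 stood well above the other 5 libraries. Of the remaining Δ/D329A values, 1.54 RPM lay within the range of +/+ and 1.72 RPM above it. The log2 difference was 0.49 with a standard error of 0.38, and 0.13 without Δ/D329A replicate 3. In the tile 1169 bases inside the gene, which was picked as the highest of Lect1 after its values were seen, H3K4me3 was 3.35, 2.93 and 3.15 RPM in +/+ and 4.39, 3.71 and 8.33 RPM in Δ/D329A. H3K27me3 at the promoter of Lect1 was 0.881, 0.841 and 0.744 RPM in +/+ and 0.672, 0.859 and 1.19 RPM in Δ/D329A (log2 difference 0.10, SE 0.22). H3K36me3 over the body of Lect1 was 0.616, 0.595 and 0.674 RPM in +/+ and 0.761, 0.604 and 0.654 RPM in Δ/D329A (log2 difference 0.08, SE 0.10), a small difference beside the 3.23 of its RNA. The tile of Lect1 highest for H3K36me3 lay 18169 bases inside the gene and was likewise picked after its values were seen. It held 1.36, 1.42 and 1.47 RPM in +/+ and 1.07, 1.08 and 1.15 RPM in Δ/D329A, the opposite direction to the RNA.

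For Matn1, H3K4me3 at the promoter was lower in RPM than the mean input in both genotypes, at 0.474, 0.632 and 0.591 RPM in +/+ and at 0.753, 0.434 and 0.613 RPM in Δ/D329A (log2 difference 0.05, SE 0.36). Each value was above the median tile of its own H3K4me3 library, 0.131 to 0.200 RPM in +/+ and 0.0789 to 0.314 RPM in Δ/D329A. H3K27me3 was 0.975, 0.781 and 0.992 RPM in +/+ and 1.45, 1.05 and 1.70 RPM in Δ/D329A. All 3 Δ/D329A values were above all 3 +/+ values, the direction of more H3K27me3 where more RNA was measured, but the log2 difference of 0.54 (SE 0.20) had an adjusted p of 0.529. Over all promoters 6.3% had H3K27me3 groups that did not overlap in this direction. H3K36me3 at the Matn1 promoter was 0.263, 0.403 and 0.288 RPM in +/+ and 0.243, 0.172 and 0.262 RPM in Δ/D329A, lower without overlap (log2 difference −0.35, SE 0.27, limma adjusted p = 0.832), as in 2.67% of all promoters, whose median difference was 0.11. Over the body of Matn1, H3K36me3 was 0.127, 0.177 and 0.205 RPM in +/+ and 0.283, 0.188 and 0.262 RPM in Δ/D329A, with a log2 difference of 0.35 (SE 0.16, limma adjusted p = 0.348).

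Col11a2 had the largest separation in H3K4me3. It stood at 8.16, 8.68 and 9.89 RPM in +/+ and at 4.70, 6.98 and 6.42 RPM in Δ/D329A, without overlap, as 4.23% of all promoters did in this direction. The log2 difference was −0.57 (SE 0.18, limma adjusted p = 1, edgeR adjusted p = 0.109). The higher-background library, Δ/D329A replicate 1, was the lowest of them, and the other 2 were also below +/+. H3K27me3 at the Col11a2 promoter was 0.503, 0.931 and 0.645 RPM in +/+ and 1.38, 0.879 and 1.35 RPM in Δ/D329A (log2 difference 0.72, SE 0.27, adjusted p = 0.529), and over its body 0.632, 0.438 and 0.588 RPM against 0.949, 0.692 and 1.05 RPM (log2 difference 0.61, SE 0.19, adjusted p = 0.355). The body values of the groups did not overlap, as for 4.95% of all bodies in this direction.

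**Figure D4:**
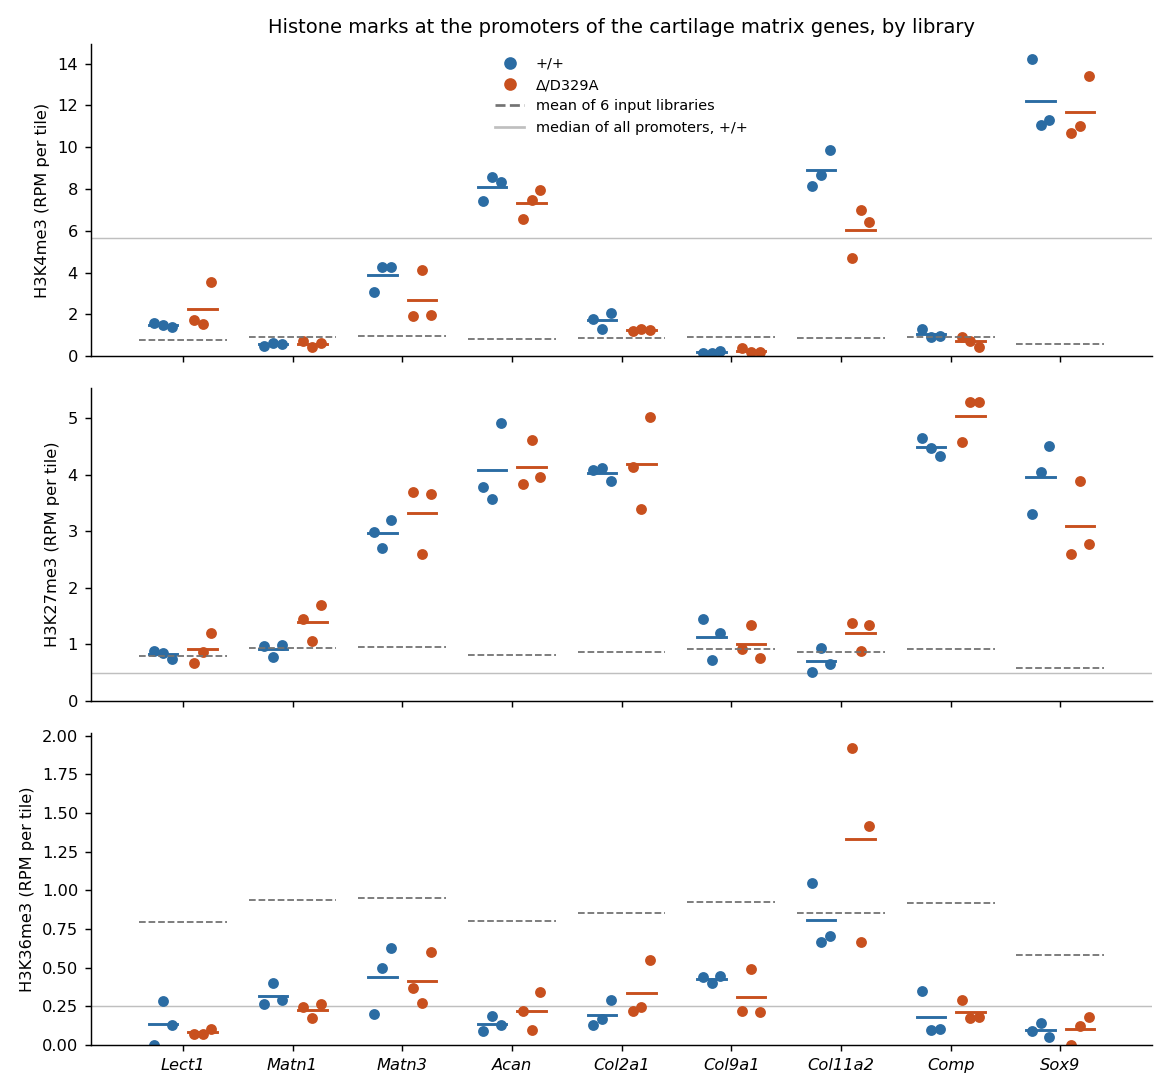
RPM of H3K4me3, H3K27me3 and H3K36me3 at the promoters of the 9 members, with 1 point for each of 3 +/+ and 3 Δ/D329A libraries and a line at their mean. The dashed line is the mean of the 6 input libraries and the grey line the median of all promoters in +/+ (5.64, 0.483 and 0.250 RPM). Col11a2 is the gene whose H3K4me3 points are lower in Δ/D329A without overlap, and Matn1 the gene whose H3K27me3 points are higher and H3K36me3 points lower without overlap.

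At the promoters of the other members the values of the genotypes overlapped for all 3 marks. H3K4me3 at Sox9 averaged 12.2 ± 1.8 RPM in +/+ and 11.7 ± 1.5 RPM in Δ/D329A (SD, n = 3 each), and at Acan 8.12 ± 0.61 and 7.33 ± 0.69 RPM. At Matn3 it was 3.07, 4.29 and 4.27 RPM in +/+ and 1.91, 4.14 and 1.97 RPM in Δ/D329A, a log2 difference of −0.59 with a standard error of 0.35. H3K27me3 at Sox9 was 3.30, 4.05 and 4.51 RPM in +/+ and 2.59, 3.90 and 2.77 RPM in Δ/D329A, a log2 difference of −0.36 with a standard error of 0.19. The mark averaged 4.09 ± 0.72 and 4.14 ± 0.42 RPM at Acan, 4.03 ± 0.12 and 4.19 ± 0.81 RPM at Col2a1, and 4.49 ± 0.16 and 5.05 ± 0.41 RPM at Comp. Over the body of Comp, H3K27me3 was 3.43, 3.81 and 4.36 RPM in +/+ and 3.11, 3.15 and 3.06 RPM in Δ/D329A, lower without overlap (log2 difference −0.30, SE 0.10, limma adjusted p = 0.356), as in 14.7% of all bodies.

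**Figure D5:**
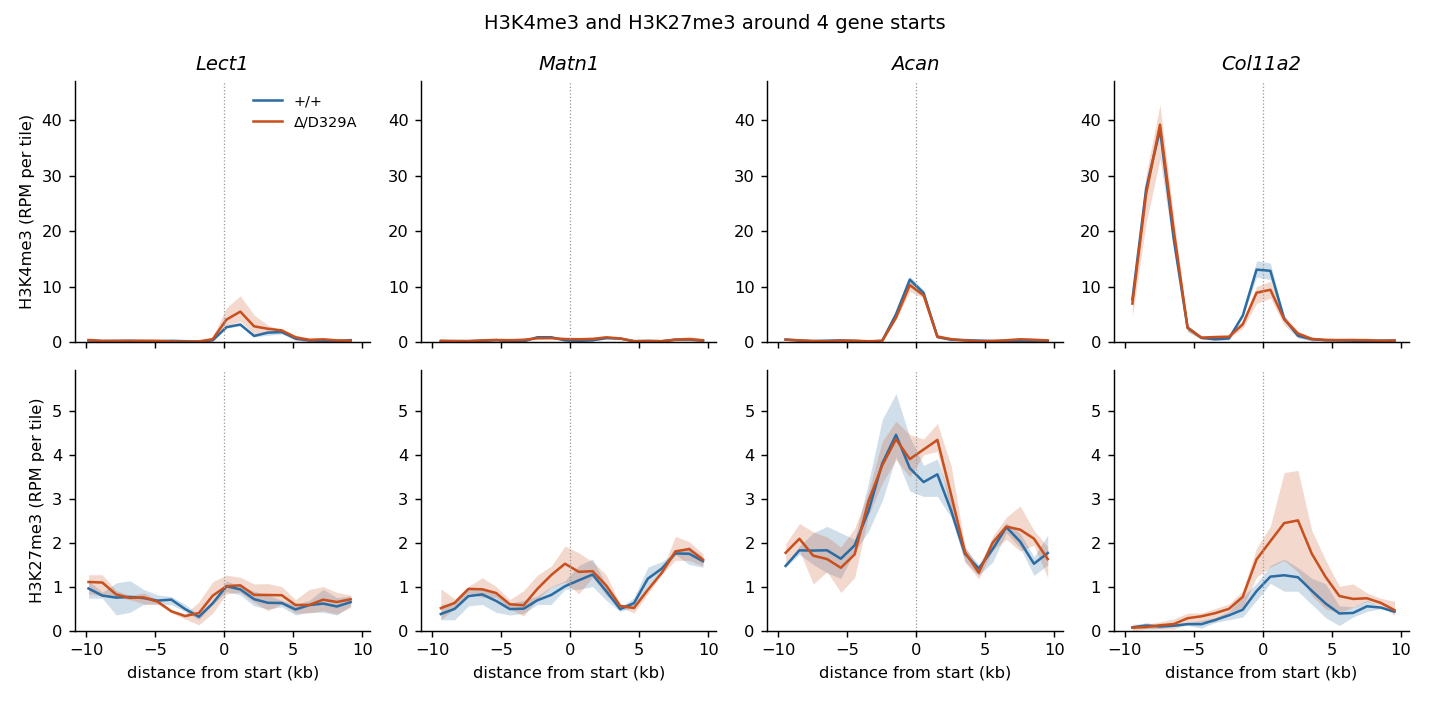
H3K4me3 (top) and H3K27me3 (bottom) in tiles within 10 kb of the gene start at Lect1, Matn1, Acan and Col11a2, with the mean of 3 libraries per genotype as a line and their range as a band (RPM per tile, distance in kb along the gene). Lect1 has a low H3K4me3 summit just inside the gene (3.14 RPM in +/+), Matn1 has none, and Col11a2 shows its own summit beside a taller one at −7436 bases. The Acan promoter is above input for both marks on the RPM scale in +/+.

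Across the 9 members, the median log2 difference of Δ/D329A minus +/+ was −0.15 for promoter H3K4me3, 0.10 for promoter H3K27me3 and 0.13 for gene body H3K36me3, beside −0.07, −0.02 and −0.02 over all genes. Of the 50 other cartilage genes, limma called none for any mark at the promoter or over the body. At an unadjusted p under 0.05 there were 6, 4 and 3 promoters for H3K4me3, H3K27me3 and H3K36me3, against 3.47%, 8.9% and 6.58% of all promoters. Over bodies there were 6, 6 and 9, against 3.53%, 13% and 16.1% of all bodies. RNA-seq and ChIP-seq came from different libraries, so no animal was followed from mark to RNA, and DNA methylation was not analysed here. The study gives the RNA-seq animals as female in a supplementary legend. A main legend of the study gives male hypothalamus for expression and marks alike. The RNA and the marks may therefore come from different sexes.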

How the data were processed

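RNA-seq and native ChIP-seq of adult hypothalamus were used. The authors trimmed reads and aligned them to GRCm38 (submitters' processing notes: Trim Galore 0.4.3, HISAT2 2.0.5, Bowtie2 2.3.2; the study's methods name other releases and Bowtie), and quantified them in SeqMonk. The RNA-seq values are log2 RPKM per gene as deposited by the authors, in which 0 reads are entered as 0.9 read. The ChIP-seq values are the signal (coverage) over tiles of 2000 bases, scaled to mapped reads (RPM) and deposited by the authors for each library without input subtraction. Whole reads were recovered for 100% of genes and tiles (tolerances of 0.02 and 0.01 read). The authors left out 1 Δ/D329A RNA library for quality.

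Groups followed the labels. Each animal gave all 3 marks and input per the study's reporting summary, so that marks and input of 1 number, taken as 1 animal, were also fitted with the animal as a block (their deviations correlated between −0.03 and 0.03). Non-mitochondrial genes that reached 0.1 RPKM in 4 or more libraries were fitted with limma 3.58.1 (trend, two-sided, Benjamini-Hochberg, adjusted p under 0.01). The authors used DESeq on counts. The deposited unit called for limma, with edgeR 4.0.16 and DESeq2 1.42.0 on recovered reads as alternatives. Marks were fitted as log2(RPM + 0.1) at 25952 promoters and 23660 bodies, called at 0.05. Each fit was first tested on simulated data, where the promoter fits of all 3 marks missed most changes of 1 log2 unit. The members and lists were chosen with earlier results of these data known. Named genes were the members, their neighbours, the 3 genes most like Lect1 and Matn1 in profile, and of the list those called, the 5 best expressed and the 3 with the largest differences. Promoter sequences came from RefSeq (GRCm38.p6), whose start lies 13 bases upstream of the table's for Lect1, 257 for Acan and 299 for Col11a2. Alternatives were other scalings, pseudocounts, filters, regions and tools, a replicate block and leaving out each library.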

Additional observations from a re-analysis of the deposited data

How the results depend on the processing

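Because the RNA-seq contrast chose the members, their count past its threshold is given as a description only. It was 2 in the replicate block and under every other scaling, filter and tool, and 0 to 2 with 1 library left out, where the genes called over the whole table went from 19 to 1 to 5 without a Δ/D329A library while the differences stayed at 3.10 to 3.28 for Lect1 and 4.37 to 4.57 for Matn1. The difference of Matn1 moved from 4.46 to 2.99 with 0.1 added to RPKM. The wider cartilage list went from 0 called genes to 1 under median centring and 1 with edgeR (Scrg1 each time) and to 4 with DESeq2, and the neighbours of the 9 members from 0 to 1 with edgeR and 1 with DESeq2 (Col19a1). With each library centred on its own median over promoters, 2 members were above input for H3K4me3, 8 for H3K27me3 and 1 for H3K36me3. No member was called between genotypes for any mark under any alternative listed, mitochondrial coverage sets, input ratios and the replicate block included (0 members each). Same-numbered RNA-seq libraries correlated between −0.05 and 0.14 in their deviations and same-numbered promoter H3K4me3 libraries between −0.26 and 0.23, so the numbers did not pair the animals across genotypes. Depth limits Comp, Matn3 and Matn1 in +/+, with 0 to 5 reads per library.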
